A study of Mus musculus with 8 samples.

Results

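The transcripts described here are those of 10 transcription factors that direct the megakaryocyte and erythroid lineages, Gata1, Gata2, Klf1, Fli1, Gfi1b, Tal1, Zfpm1, Nfe2, Runx1 and Lmo2. They were chosen by name, as every non-control probe of the array whose gene name is one of the 10. This gave 12 probes for 10 of the 34797 gene names, with a pair of probes each for Zfpm1 and Runx1. RNA came from common myeloid progenitors (CMPs) of untreated wild-type C57BL/6J mice, sorted as lineage-negative, c-Kit+, Sca-1-, CD34+ cells with low Fcγ receptor. There were 4 arrays of young mice (2 to 3 months of age in the sample labels, 3 to 4 in the series text) and 4 arrays of old mice (22 to 24 months in the labels, 22 to 26 in the series text). The methods give fewer mice than arrays and do not say which arrays those mice stand for, so p-values measure the spread between these arrays, part of which may be technical. Both ages lay on each of 2 slides, with 2 arrays of either age per slide.

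CMPs give rise to granulocyte-monocyte progenitors and to megakaryocyte-erythroid progenitors. Gata2 acts in stem and early progenitor cells and is exchanged for Gata1 as cells enter the erythroid and megakaryocyte lineages, and the protein FOG1, encoded by Zfpm1, is the partner of Gata1 in that exchange. Tal1 and Lmo2 form a complex with GATA factors on DNA. Klf1 favors the erythroid and Fli1 the megakaryocyte fate, and each can repress the program of the other.

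GATA factors recognize short words in DNA, and Gata1 is known to act on genes that encode its own partners. The reference promoters of 4 of the factors are shown because 3 of them hold such a word, while the fourth belongs to Gata1 itself. Each sequence is the 250 bases before the transcription start in RefSeq (GRCm38.p6), read 5′ to 3′ on the strand of the gene, with GATA words in capitals. They lie at chrX:7967911-7968160 on the minus strand for Gata1, chr8:84901732-84901981 on the plus strand for Klf1, chr2:28621983-28622232 on the minus strand for Gfi1b and chr4:115056176-115056425 on the plus strand for the upstream start of Tal1.
Gata1: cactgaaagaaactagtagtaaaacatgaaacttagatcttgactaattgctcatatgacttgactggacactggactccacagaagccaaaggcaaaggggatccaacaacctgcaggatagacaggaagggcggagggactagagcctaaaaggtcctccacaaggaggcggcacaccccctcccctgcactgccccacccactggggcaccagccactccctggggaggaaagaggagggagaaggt
Klf1: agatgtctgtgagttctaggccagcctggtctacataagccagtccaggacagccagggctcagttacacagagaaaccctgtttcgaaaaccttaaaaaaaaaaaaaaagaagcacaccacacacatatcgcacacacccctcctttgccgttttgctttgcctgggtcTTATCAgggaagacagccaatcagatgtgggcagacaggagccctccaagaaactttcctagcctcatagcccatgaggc
Gfi1b: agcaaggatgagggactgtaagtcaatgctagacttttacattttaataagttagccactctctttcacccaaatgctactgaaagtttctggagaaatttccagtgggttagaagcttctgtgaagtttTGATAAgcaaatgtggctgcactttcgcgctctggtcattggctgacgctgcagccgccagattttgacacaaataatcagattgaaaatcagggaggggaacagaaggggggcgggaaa
Tal1: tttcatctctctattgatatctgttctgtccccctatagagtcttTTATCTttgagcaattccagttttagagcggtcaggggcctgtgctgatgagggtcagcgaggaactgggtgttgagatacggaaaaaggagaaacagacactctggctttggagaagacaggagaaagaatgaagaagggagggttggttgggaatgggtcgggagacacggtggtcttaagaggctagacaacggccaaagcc

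The word searched was GATA with A or T before it and A or G after it, on both strands, and 26.5% of 32851 promoter windows of this length held it. The word starts 80 bases before the start of Klf1, 120 before that of Gfi1b and 205 before that of Tal1. The windows of Gata1, Gata2, Zfpm1 and Runx1 and the second start of Tal1 did not hold these letters. No window was used for Fli1, Nfe2 and Lmo2. A match is a description of the sequence and was not tested as a binding site.

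All 12 probes were well above background on all 8 arrays and none of their spots was an outlier. Values are log2 signal relative to the 75th percentile of the same array, and a difference is the mean of the old minus the mean of the young arrays. All 10 genes had a higher mean in the old arrays by their brightest probe. The median difference was 0.50 on the log2 scale, beside -0.01 over all 23161 genes tested. None of the 10 was called by limma, with a call defined by a p under 0.05 after Benjamini-Hochberg adjustment together with a 1.5-fold or larger change. Over all genes tested, 0.19% were called higher and 0.0173% lower in old CMPs. At an unadjusted p under 0.05 and the same fold, 4 of the 10 were higher (Gata1, Gata2, Tal1 and Zfpm1) and none was lower, where 2.8% of all genes were higher and 2.12% lower. For 5 of the 10 (Gata1, Gfi1b, Tal1, Zfpm1 and Nfe2) all old arrays had more signal than any young array, as they did for 3.18% of all genes, and for none did all old arrays have less, as for 1.66% of all genes. In RNA of a sorted population, a larger share of cells of a type and more RNA per cell cannot be told apart.

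**Figure D1:**
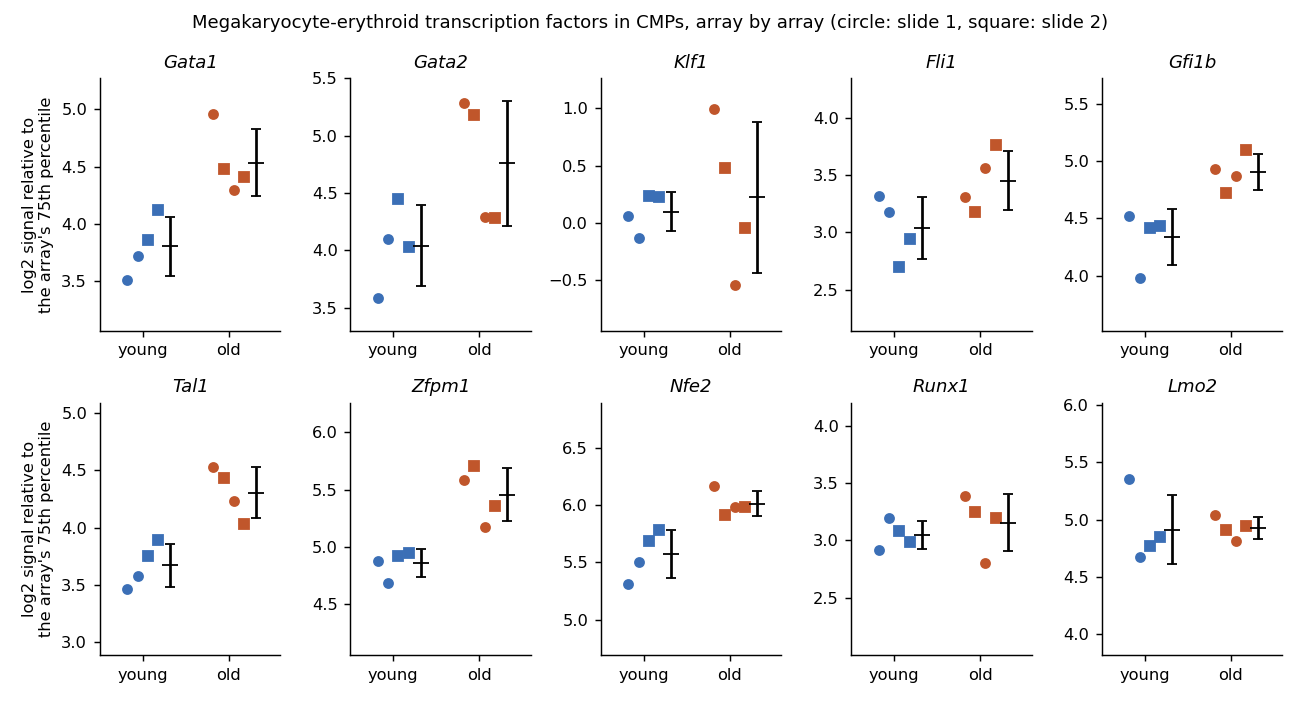
Each panel plots 1 gene by its brightest probe, with log2 signal above the 75th percentile of its array on the vertical axis, 4 young arrays in blue, 4 old arrays in orange, and the mean with its SD in black. Panels span the same height on the log2 scale around different centers, and old and young arrays do not overlap for Gata1, Gfi1b, Tal1, Zfpm1 and Nfe2.

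Gata1 encodes the zinc finger factor that drives erythroid and megakaryocyte differentiation (probe at chrX:7536392-7536451, minus strand, in mm9, the build of all probe positions below). Its log2 signal was 3.51, 3.72, 3.86 and 4.13 in the young arrays (replicates 3, 4, 5 and 6, an order kept throughout) and 4.96, 4.48, 4.29 and 4.41 in the old arrays (replicates 2, 3, 4 and 5). All old arrays were above all young arrays, with old replicate 2 highest. The difference was 0.73 with a standard error (SE) of 0.21, a 1.66-fold higher mean, and its limma adjusted p was 0.355. An exact two-sided permutation test gave p = 0.0286, the smallest that 4 against 4 arrays allow. The difference was 1.01 on slide 1 and 0.45 on slide 2.

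Gata2, the GATA factor of stem and early progenitor cells and of mast cells, was measured at chr6:88156362-88156421 on the plus strand. Its log2 signal was 3.59, 4.097, 4.45 and 4.03 in the young arrays and 5.29, 5.18, 4.29 and 4.29 in the old arrays. Old replicates 2 and 3 stood above every young array, and old replicates 4 and 5 lay within the young range. The difference was 0.72 (SE 0.30; limma adjusted p = 0.704), and the exact permutation p was 0.0857.

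Zfpm1 encodes FOG1, the cofactor that Gata1 needs in both lineages. The brighter of its probes (chr8:124861092-124861151, plus strand) gave 4.88, 4.68, 4.92 and 4.94 in the young arrays and 5.59, 5.71, 5.18 and 5.36 in the old arrays. Its difference was 0.60 (SE 0.18; limma adjusted p = 0.387), with 0.60 on either slide. The second probe (chr8:124861087-124861146) overlaps the first in position and is no separate measurement of the transcript. It gave a difference of 0.60 as well, and no old array fell within the young range by either probe.

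Tal1, the basic helix-loop-helix partner of the GATA factors (chr4:114744219-114744278, plus strand), gave 3.47, 3.58, 3.75 and 3.89 in the young and 4.53, 4.43, 4.23 and 4.03 in the old arrays. The lowest old array was 0.14 above the highest young array. The difference was 0.63 (SE 0.19; limma adjusted p = 0.364). Lmo2, the bridging protein of the same complex (chr2:103821857-103821916, plus strand), gave 5.35, 4.67, 4.77 and 4.85 in the young and 5.04, 4.91, 4.82 and 4.95 in the old arrays. Its groups overlapped and the difference was 0.02, with a 95% interval from -0.42 to 0.45.

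Gfi1b is a repressor that erythroid and megakaryocyte progenitors require (chr2:28464982-28465041, minus strand). It gave 4.52, 3.98, 4.42 and 4.43 in the young and 4.93, 4.72, 4.87 and 5.09 in the old arrays. The groups did not overlap, and the difference was 0.57 (SE 0.19; limma adjusted p = 0.464). Nfe2, whose product activates late platelet genes (chr15:103078838-103078897, minus strand), gave 5.31, 5.51, 5.68 and 5.79 in the young and 6.17, 5.92, 5.99 and 5.99 in the old arrays. These groups did not overlap either, and the difference was 0.44 (SE 0.17; limma adjusted p = 0.660). It was 0.67 on slide 1 and 0.22 on slide 2.

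Klf1, the activator of globin and red cell membrane genes (chr8:87428881-87428940, plus strand), gave 0.06, -0.13, 0.24 and 0.23 in the young and 0.99, 0.48, -0.54 and -0.04 in the old arrays. Old replicates 2 and 3 were above the young range, old replicate 4 was below it, and the SD was 0.17 among young and 0.66 among old arrays. The mean difference of 0.12 had a 95% interval from -0.56 to 0.81. Without old replicate 2 it was -0.13, so that array set its direction.

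Fli1, the ETS factor of megakaryocytes (chr9:32229857-32229916, minus strand), gave 3.32, 3.18, 2.70 and 2.94 in the young and 3.31, 3.18, 3.56 and 3.76 in the old arrays. Here old replicates 4 and 5 were above the young range and old replicates 2 and 3 lay within it, the reverse of Gata2. The difference was 0.42 (SE 0.21; limma adjusted p = 0.885), and the exact permutation p was 0.143.

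Runx1 is required for the first blood stem cells and for megakaryocyte maturation. Its brighter probe (chr16:92604413-92604472, minus strand) differed by 0.11, with a 95% interval from -0.30 to 0.52. The second probe (chr16:92605785-92605844, minus strand), which carries the name of another Runx1 transcript, differed by -0.23, with an interval from -0.67 to 0.20. The probes disagree in sign, and both intervals include 0.

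**Figure D2:**
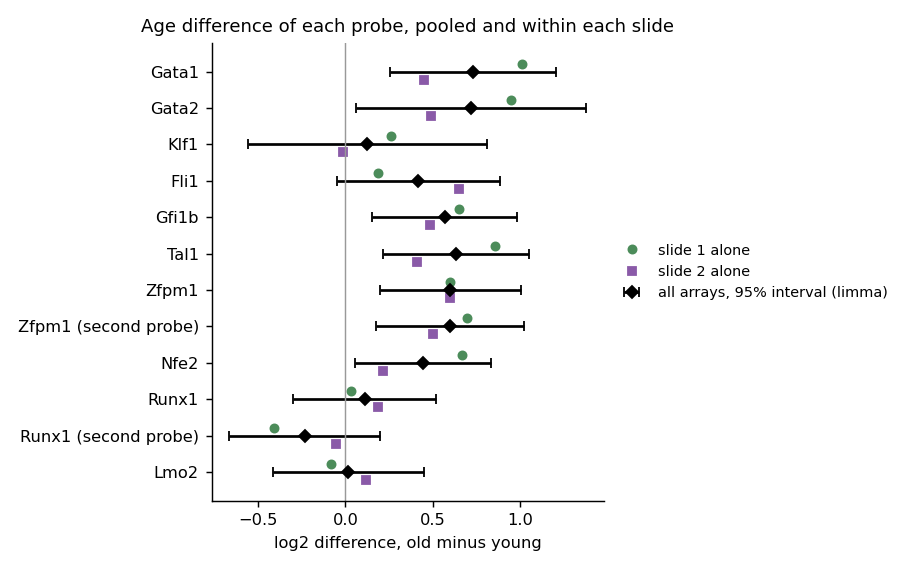
The horizontal axis is the log2 difference of old minus young for each of the 12 probes, with the limma estimate and its unadjusted 95% interval in black and the value of each slide alone in green and purple. The intervals of Gata1, Gata2, Gfi1b, Tal1, Zfpm1 and Nfe2 lie above 0, and those of Klf1, Fli1, Runx1 and Lmo2 include 0.

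The factors were also compared with each other across the 8 arrays, in 10 pairs whose proteins are known to bind, regulate or oppose one another. Gata1 and Nfe2 had the highest Pearson correlation of the 10 pairs, r = 0.96 (exact permutation p = 0.000198, adjusted over the 10 pairs 0.00198) and Spearman rho = 0.90 (exact permutation p = 0.00456, adjusted 0.0228). Without the 2 arrays farthest from the median of Gata1, r was 0.94, and after subtraction of each age's mean it was 0.87 (exact permutation within ages, adjusted p = 0.0868). Since the ages differ in level, pooled correlations partly repeat the age difference. Gata1 and Zfpm1 had the highest Spearman rho, 0.95 (exact permutation p = 0.00114, adjusted 0.0114), with r = 0.87 over all arrays. After subtraction of the age means r was 0.51 (exact permutation within ages, p = 0.271, adjusted p = 0.339). Gata2 and Tal1 had 0.87 pooled and 0.80 after that subtraction, and Gata1 and Gata2 had 0.84 and 0.68. Without the 2 arrays farthest from the median of the first gene, their pooled r was 0.63 and 0.53. For Gata2 and Fli1 the pooled r was -0.03, and after subtraction of the age means it was -0.88 (exact permutation within ages, p = 0.026, adjusted p = 0.0868). It was -0.89 among the 4 young and -0.91 among the 4 old arrays. Pooled r and r after subtraction of the age means were 0.53 and 0.76 for Gata1 and Klf1 (exact permutation within ages, p = 0.0243, adjusted p = 0.0868). They were 0.73 and 0.05 for Gata1 and Gfi1b, -0.09 and -0.25 for Tal1 and Lmo2, and -0.33 and -0.58 for Fli1 and Klf1. For Gata1 and Spi1, a gene outside the 10 factors, they were 0.09 and 0.50. No pair passed the adjusted threshold once the age means were subtracted.

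**Figure D3:**
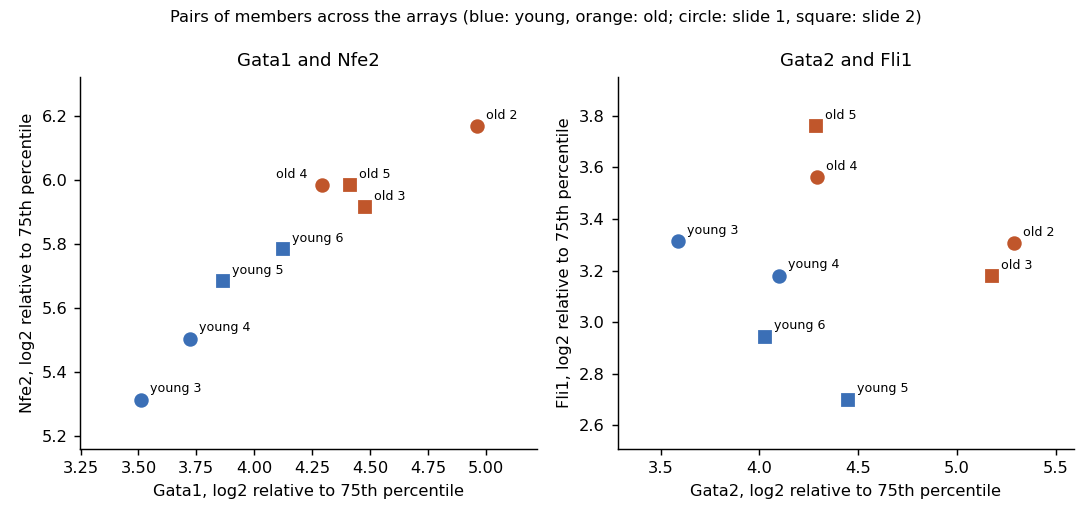
The log2 signals of Gata1 and Nfe2 (left) and of Gata2 and Fli1 (right) are plotted against each other for the 8 arrays, relative to the 75th percentile of each array. Gata1 and Nfe2 lie near 1 rising line over both ages (r = 0.96). Within each age Fli1 falls as Gata2 rises, on separate lines (r = -0.89 young, -0.91 old). For Gata2 and Fli1 the exact permutation within ages gave an adjusted p of 0.0868.

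Partners and relatives of these factors were read from gene lists. Of 20 cofactors, among them Ldb1 and the small Maf proteins that pair with Nfe2, none was called, 10 had a higher and 10 a lower mean, and the median difference was 0.00. Mafk (0.25) and Sp1 (0.23) had the largest positive differences, followed by Mta2 (0.14), and Sp3 (-0.21) and Lyl1 (-0.11) the most negative. Of 24 related factors, 22 were tested and none was called, with a median of 0.05. Gata3, the GATA factor of T cells, gave -1.61, -2.54, -1.99 and -1.53 in the young and -0.36, -0.88, -0.90 and -0.68 in the old arrays, a difference of 1.22 without overlap (limma adjusted p = 0.132). The groups did not overlap for Meis1 (0.65 higher in old CMPs) or for Ikzf1 (-0.33) and Gfi1 (-0.51), the paralog of Gfi1b, while those of Ets1 (0.62) overlapped.

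The factors of the opposing granulocyte-monocyte fate had a median difference of -0.31, with 3 of 13 higher and 10 lower in mean and none called. Spi1, which encodes the Gata1 antagonist PU.1, differed by -0.19 (SE 0.31) and Cebpa by -0.09 (SE 0.36). Irf8, a factor of monocyte fate, gave 4.45, 4.25, 5.03 and 4.90 in the young and 4.12, 3.89, 3.76 and 4.03 in the old arrays (difference -0.71, limma adjusted p = 0.394). Cebpd differed by -0.71 as well, Cebpb by -0.60 and Klf4 by -0.51. With Irf8, these were the 4 genes of the list lower in every old than every young array, as were 1.66% of all genes. Egr1 (0.99), Egr2 (0.88) and Nab2 (0.45), partners in monocyte commitment, were the 3 that were higher in every old array. Over all genes this share was 3.18%. Without old replicate 4 the median of the list was 0.01.

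Genes that these factors are known to activate were read by lineage. Of 24 megakaryocyte targets, 23 had a higher mean in old CMPs, with a median difference of 1.02. Of them, 14 were higher in every old than every young array, 20 passed the unadjusted threshold and 1 was called. Over all genes tested, 3.18% were higher in every old array, 2.8% were higher at the unadjusted threshold and 0.19% were called higher. The list was chosen with earlier results of these data known, so its counts are no independent support. The called gene was Gp9, a subunit of the platelet von Willebrand factor receptor, which gave 1.44, 1.38, 1.58 and 1.71 in the young and 2.98, 2.75, 2.61 and 2.61 in the old arrays and rose 2.31-fold (SE 0.17 on the log2 scale; limma adjusted p = 0.0327). Itga2b, the integrin CD41, had a mean difference of 1.22 (adjusted p = 0.272), and Pf4, the platelet chemokine, one of 1.36 (adjusted p = 0.13) by the same test. Ppbp (1.77) and F2rl2 (1.30) also stood among the largest, Plek differed by 0.03 and Tubb1, well above background on 3 arrays of either age, by -0.25.

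Of 34 erythroid targets, 31 were tested, none was called, 15 had a higher and 16 a lower mean, and the median was -0.01. In every old array 3 were higher than in every young array (Aqp1, Car2 and Bcl2l1) and 0 were lower. Over all genes these shares were 3.18% and 1.66%. At the unadjusted threshold 3 were higher and 0 lower, where 2.8% of all genes were higher and 2.12% lower. Car2 differed by 0.63 and Bcl2l1 by 0.47. Aqp1, a water channel of red cells and endothelium, gave 3.84, 3.29, 3.63 and 4.30 in the young and 5.04, 4.72, 4.75 and 5.12 in the old arrays (difference 1.14, limma adjusted p = 0.13). Epor, the erythropoietin receptor, gave 1.86, 1.84, 2.13 and 2.02 in the young and 3.32, 2.93, 1.82 and 2.36 in the old arrays. Old replicates 2 and 3 were again the highest, as for Klf1 and Gata2, and the adjusted p was 0.823 by limma. Sptb, a red cell membrane protein, differed by 1.03, and Rhag (-2.00) and Ahsp (-1.17) were most negative, with overlapping groups for all 3. Rhag was well above background on 3 young arrays and 1 old array. Young replicate 3 stood apart from the other young arrays for hemoglobin genes. Hba-a1, which shares near-identical sequence with its gene copy, gave 2.21 there and between -2.46 and -1.11 in the other young arrays, and Ahsp, the chaperone of alpha globin, 2.23 against -3.80 to 0.18. Klf1 and Gata1 were not highest on that array (0.06 and 3.51). Without it the erythroid median was 0.16, and Gata1 differed by 0.63.

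Markers of other cells that a CMP gate could hold were read in the same arrays. Of 19 mast cell, basophil and eosinophil markers, 16 were tested and 1 was called. This was Fcer1a, a chain of the IgE receptor, which gave -2.69, -3.49, -2.31 and -3.06 in the young and -0.91, -0.91, -0.08 and 0.34 in the old arrays (difference 2.50, limma adjusted p = 0.0293). Cpa3 (0.86) and Gzmb (1.03) also had higher means and Epx (-0.83) and Cma1 (-1.01) lower ones, with a list median of 0.02. The log2 summed signal of the list, in which Fcer1g, Gzmb and Hdc are the brightest genes, ranged from 5.92 to 6.33 in young arrays. In old arrays it ranged from 5.95 to 6.75. This sum mostly follows those genes. Among old arrays the summed signal was 6.75 and 6.22 in replicates 2 and 3, where Gata2 was highest, and 5.95 and 6.04 in replicates 4 and 5. Gzmb (5.51 and 4.41) and Mcpt8 (1.68 and 1.59) were also highest among old arrays in replicates 2 and 3. Fcer1a, Cpa3, Ms4a2 and Il1rl1 were highest in 4 and 5. The part of such cells in the Gata2 difference was not tested.

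Of 14 HSC markers, 10 had a higher mean in old CMPs, with a median of 0.42 and none called, led by Esam (1.23), Pdzk1ip1 (1.02) and Mycn (0.89), while Ly6a (-0.73) and Procr (-0.30) were lowest. Granulocyte and monocyte markers had a median of -0.36, 2 of 16 tested genes higher and 14 lower in mean. Itgam (0.25) and Camp (0.02) were the 2 positive ones, Fcgr1 differed by -0.03, and Mmp8 (-1.03) and Elane (-1.02) were most negative. Mmp8 and Elane had overlapping groups, while Prtn3 (-1.01), Mpo (-0.59) and Csf1r (-0.57) were lower in every old than every young array. The log2 summed signal of these markers, in which Mpo is the brightest gene, ranged from 10.04 to 10.45 in young arrays. In old arrays it ranged from 9.75 to 9.88. Of 18 lymphoid markers only 8 were tested, with a median of -0.20. Vpreb1 (0.19), Cd79b (-0.12) and Dntt (-0.14) were the highest of them, and Cd8a (-0.52) the lowest. The remaining ones, such as Rag1, Cd3d and Pax5, were not well above background on enough arrays or were not on the array under that name. Of 12 endothelial and stromal markers 8 were tested, 4 with a higher and 4 with a lower mean, none called, and a median of 0.12. Col1a2 (1.22), Tie1 (1.01) and Emcn (0.96) were higher in every old array, while Cdh5, a defining endothelial gene, was not tested, and Dcn (-0.54) and Cxcl12 (-0.41) were lowest. A list of 10 surface markers of the sort held the genes of the CMP gate and others used to sort progenitors and stem cells. Of its 9 tested genes 3 had a higher and 6 a lower mean, none was called, and the median was -0.36. Of the gate itself, Kit differed by 0.31, Cd34 by -0.21, Ly6a, which encodes Sca-1, by -0.73, and the Fcγ receptor genes Fcgr3 and Fcgr2b by -0.47 and -0.36. Outside it, Slamf1 differed by 0.64, Eng by 0.38 and Flt3 by -0.62, and Il7r was not tested. Cma1 and Cxcl12 were well above background on 3 young and 2 old arrays, Cd8a on 2 of either age, Dcn on 4 young and 3 old arrays and Slamf1 on 3 young and 4 old arrays. The part of any such cells in the differences of the 10 factors was not tested.

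**Figure D4:**
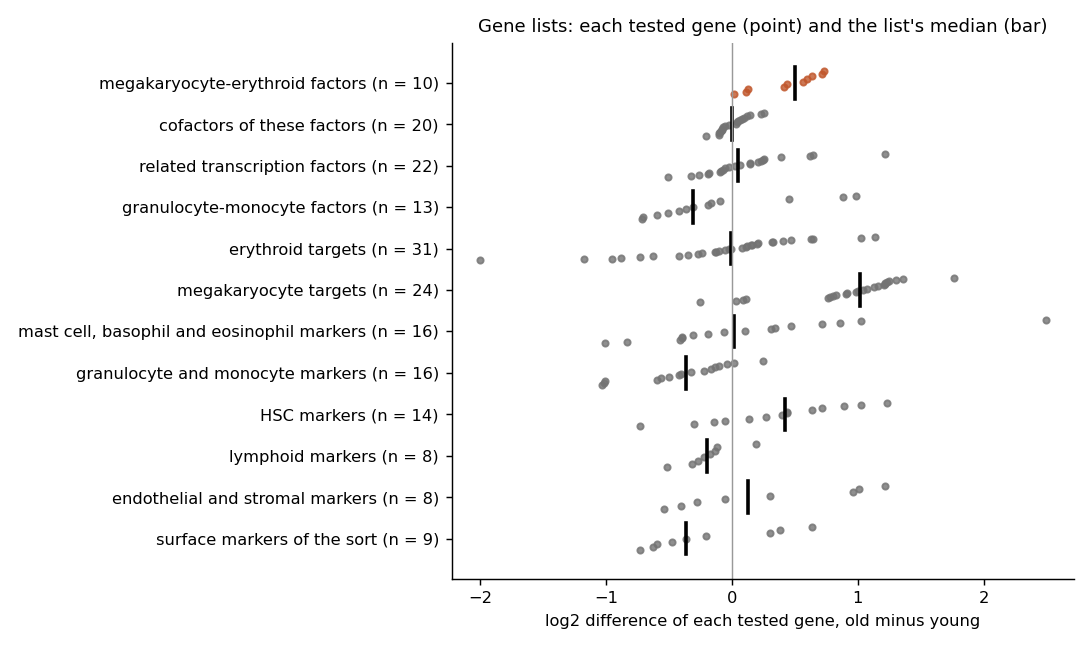
Each point is 1 tested gene by its brightest probe, placed by its log2 difference of old minus young, and the bar is the median of its list. The 10 factors lie between 0.02 and 0.73, the megakaryocyte targets center on 1.02 and the erythroid targets on -0.01.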

How the data were processed

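Total RNA, labelled with 1 dye, of sorted CMPs was hybridized to Agilent 8x60K arrays, and Feature Extraction 10.7.3.1 turned the scans into values, per the labels. The deposited scanner files give each spot's background-corrected intensity on a linear scale with its quality flags, and positions in mm9. A deposited table of log2 values, shifted to the 75th percentile and centered on a baseline by the authors, served as an alternative.

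Each intensity was put on the log2 scale and the 75th percentile of its array, taken over 59305 non-control spots, was subtracted. After removal of outlier spots, repeated spots were averaged, giving 55681 probes. The 33479 probes well above background on at least 4 of 8 arrays were tested with limma 3.58.1 in R 4.3.3 (lmFit, eBayes), with Benjamini-Hochberg adjustment over all of them. A gene is represented by its tested probe with the highest mean. No spot was saturated, between 55.6% and 63.2% of probes per array were well above background, and arrays correlated at 0.967 to 0.992. Their number limits the precision. Single differences and correlations were tested by exact permutation. Slides and scan sessions coincide.

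The genes and lists were chosen with earlier results of these data known. Named genes are the 10 factors, every called gene and the 3 most positive and 2 most negative tested genes of each list, and Spi1, Cebpa, Irf8, Hba-a1, Epor, Itga2b, Pf4 and Gp9. Of 218 list genes, 215 were found on the array, 3 of them by an older name, and 191 were tested. Some genes that this rule names are not reported here. Other genes named only as examples of a list were chosen after their values were seen.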

Additional observations from a re-analysis of the deposited data

Results flagged for a closer look

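In 48 groups of 4 arrays, the gap between an extreme array and its nearest neighbor was compared with the range of the group. It was past the critical value of Dixon's test in 2 groups, and chance gives about 1 in 20. The median log2 signal of the erythroid targets was 1.82 in young replicate 3, against 0.58 to 0.66 in the other young arrays. The median of the HSC markers was -0.76 in young replicate 4, against -0.23 to -0.15 in the other young arrays. In old arrays it was -0.90 to -0.52, so the other young arrays lay above every old array. The median of the age differences of these markers, a separate measure, was positive (0.42). None of the 10 factors was past the critical value in either age.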

How the results depend on the processing

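None of the 10 factors was called under any of the alternatives with adjusted p-values, the lowest adjusted p being 0.0691 for Zfpm1. The differences of Gata1, Gata2, Fli1, Gfi1b, Tal1, Zfpm1 and Nfe2 were positive under all 26 alternatives. Without adjustment, limma called 649 genes higher and 492 lower, among them 4 factors, Gata1 (0.73), Gata2 (0.72), Tal1 (0.63) and Zfpm1 (0.60). Welch's t-test is given in the methods for unpaired samples in general, and no test is named there for the arrays. It called 498 and 294 genes without adjustment, among them 3 factors, Gata1, Tal1 and Zfpm1, and 0 and 0 with adjustment.

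Over all genes, 44 higher and 4 lower calls became 69 and 19 with normexp, 68 and 11 with an intensity trend and robust variances, 166 and 71 with array weights, 29 and 2 with slide as a block, 20 and 1 with no filter on dim probes, and 0 and 0 within either slide. Lower calls numbered 1 with quantile normalization, 2 with the median shift and 12 with probes averaged. Leaving out 1 array gave 19 to 33 higher and 0 to 3 lower calls. Within slide 2, both old arrays were above both young arrays for 8 factors. With 2 arrays of either age such separation is easier to reach than with 4. Its share over all genes was not computed, so nothing is read from this count.

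Lmo2 turned to -0.066 with normexp, -0.048 with quantile normalization and -0.084 within slide 1, and ranged from -0.065 to 0.16 with 1 array left out. Klf1 was -0.012 within slide 2 and ranged from -0.13 to 0.38 with 1 array left out. Runx1 was -0.011 in the authors' table and -0.062 with probes averaged. An alternative chosen after seeing the data left out old replicates 2 and 3, the arrays with the highest Gata1, Gata2, Tal1, Zfpm1 and Klf1. It gave 16 higher calls, and Klf1 at -0.39, Runx1 at -0.049, Lmo2 at -0.030 and the endothelial and stromal median at 0.49, while Gata2 was 0.25, Gata1 0.55 and Tal1 0.46. The cause was not tested.

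The median shift moved the median of all genes to 0.10, that of the 10 factors to 0.62 and that of the related factors to 0.16. Within slide 1, the medians were 0.63 for the 10 factors, 0.19 for mast cell, basophil and eosinophil markers and -0.061 for related factors. Within slide 2 they were 0.22 for erythroid targets, -0.15 for mast cell, basophil and eosinophil markers and 0.20 for related factors. Array weights gave -0.016 for granulocyte-monocyte factors and 0.19 for mast cell, basophil and eosinophil markers. Probes well above background on all 8 arrays gave 0.63 for endothelial and stromal and 0.31 for mast cell, basophil and eosinophil markers, and averaged probes gave 0.35 for endothelial and stromal markers. With 1 array left out, granulocyte-monocyte factors ranged from -0.44 to 0.014 and related factors from -0.0066 to 0.13.

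Same-numbered young and old arrays had deviations correlating at -0.09, -0.14 and 0.15, and only number 5 matched best with its own number, so the numbers were not taken to pair the arrays. With the replicate number as a block, 10 genes were called higher and 0 lower, Klf1 was -0.089, Lmo2 -0.042 and the median of granulocyte-monocyte factors -0.56. Young replicate 6 and old replicate 2 share their number with no array of the other age. They therefore add nothing to the age difference in that fit. Signal over background did not limit the 10 factors, all well above it.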
